A study of Homo sapiens with 8 samples.

Results

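The regions described here are the ATAC-seq peaks that were most open in paclitaxel-resistant A2780 cells. A2780 is an established cell line from a human ovarian carcinoma. ATAC-seq marks open chromatin by where the transposase Tn5 can insert adapters into DNA. A peak was taken when its mean over the paclitaxel-resistant libraries was at least 5 CPM (reads in the peak, scaled to a common library total) and at least 2 times the mean of each of the other 3 groups. Members were thus chosen by their measured levels, and the rule selected 2596 of 159451 consensus peaks, each 1001 bp wide, and 38342 peaks reached 5 CPM in the paclitaxel-resistant libraries. The groups were the paclitaxel-resistant line (TxR), the line resistant to cisplatin and paclitaxel (TxCpR), the cisplatin-resistant line (CpR) and A2780 cells without a listed drug (Control), with 2 libraries each and 8 in all. All groups carry the genotype label WT and the cell type label of ovarian cancer cells. The treatment label is paclitaxel for TxR, both drugs for TxCpR, cisplatin for CpR and NA for Control. Doses, selection times and the presence of drug at harvest are not stated. Each line may be 1 population, and the labels do not tell whether a group's libraries were separate cultures, so the SD and the p-values measure only the spread between libraries, which may be technical.

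Paclitaxel binds tubulin and stabilises microtubules, which blocks the mitotic spindle. A well-known route to paclitaxel resistance is export of the drug by P-glycoprotein, the ATP-driven pump encoded by ABCB1, which does not export cisplatin. Open chromatin away from gene starts often marks enhancers, the short elements that regulate genes at a distance, while open chromatin at a start marks a promoter that can be used.

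Libraries held 7693492 to 9304798 reads in peaks, so 1 read was worth 0.107 to 0.130 CPM and 3 reads, taken as the limit that a count of 0 allows, 0.322 to 0.390 CPM per library. These limits cover counting error only. Levels are scaled to reads in peaks, so a change common to every peak is invisible, and no DNA copy number was measured. A higher level may come from more open chromatin or from more copies of the DNA, and these cannot be told apart. As a check of the label, 12 of 13 ovarian lineage genes had a tested gene-end peak (MUC16 had none). At the strongest such peak 7 genes were lower and 5 higher in TxR than in Control by mean, with no test. The 7 include KRT8 and KRT18, which share a peak, and the 5 include KRT7 at 1.43 against 1.42 CPM. Levels of the 12 genes, with the shared peak counted once, summed to 48.0 CPM in TxR, 57.5 in TxCpR, 55.5 in CpR and 64.8 in Control cells. EPCAM, an epithelial adhesion gene, averaged 8.17, 14.6, 11.4 and 13.7 CPM in that order, and PAX8, a lineage transcription factor of many ovarian carcinomas, 0.636, 1.68, 4.01 and 1.03 CPM. SOX17 stood at 5.22 CPM in TxR against 10.8 in Control, MSLN (mesothelin) at 10.7 against 10.3 and CLDN3 at 4.30 against 1.23. Their part in the results was not tested. None of the 13 genes of that list had a TxR-open peak, beside 3.32% of all coding genes with a tested peak.

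A few of the promoters that lie in TxR-open peaks are shown, because they carry the results that follow: the efflux pump gene ABCB1, its neighbour CROT with the highest level of any member, the nuclear receptor gene RARB, the transcription factor gene RUNX2, the immune ligand gene ULBP1, and ZBTB38, a zinc finger gene whose promoter peak stood out by ratio. Each line is 300 bases from RefSeq (GRCh38.p14), 250 before the start and 50 after it, 5′ to 3′ on the gene's strand. ABCB1 is read from chr7:87600835-87601134 on the minus strand. CROT (chr7:87345414-87345713), RARB (chr3:25428013-25428312), RUNX2 (chr6:45328080-45328379), ULBP1 (chr6:149963693-149963992) and ZBTB38 (chr3:141384555-141384854) are read on the plus strand. Capitals mark matches, on either strand, to the words searched. The word for AP-1 factors was TGANTCA, that for E-box proteins CACGTG, and that for the factor NF-Y was CCAAT. For SP and KLF zinc fingers it was GGGCGG, for ETS factors CCGGAAG, and for RUNX factors TGTGGT. For TEAD factors it was GGAATG, for GATA factors it was AGATAA, and for forkhead factors TGTTTAC. The cyclic AMP response element and the DR5 element of retinoic acid receptors, a pair of half-sites 5 bases apart, were searched too.
ABCB1: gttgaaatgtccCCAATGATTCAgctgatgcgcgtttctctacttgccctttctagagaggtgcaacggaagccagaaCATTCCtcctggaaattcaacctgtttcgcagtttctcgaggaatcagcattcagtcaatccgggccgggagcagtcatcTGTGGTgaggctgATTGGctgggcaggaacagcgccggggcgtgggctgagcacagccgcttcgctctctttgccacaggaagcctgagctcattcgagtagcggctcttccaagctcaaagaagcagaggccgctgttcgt
CROT: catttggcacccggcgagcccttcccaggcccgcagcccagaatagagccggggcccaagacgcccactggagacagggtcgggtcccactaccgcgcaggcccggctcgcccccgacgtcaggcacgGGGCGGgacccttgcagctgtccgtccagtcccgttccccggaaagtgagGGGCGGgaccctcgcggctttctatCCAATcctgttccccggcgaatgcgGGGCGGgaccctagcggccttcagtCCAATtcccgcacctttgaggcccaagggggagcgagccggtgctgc
RARB: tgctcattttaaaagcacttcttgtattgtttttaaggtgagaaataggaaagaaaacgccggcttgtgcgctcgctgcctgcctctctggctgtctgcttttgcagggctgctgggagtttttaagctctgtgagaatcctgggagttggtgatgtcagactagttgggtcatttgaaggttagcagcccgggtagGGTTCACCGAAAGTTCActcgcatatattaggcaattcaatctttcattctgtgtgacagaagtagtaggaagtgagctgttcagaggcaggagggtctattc
RUNX2: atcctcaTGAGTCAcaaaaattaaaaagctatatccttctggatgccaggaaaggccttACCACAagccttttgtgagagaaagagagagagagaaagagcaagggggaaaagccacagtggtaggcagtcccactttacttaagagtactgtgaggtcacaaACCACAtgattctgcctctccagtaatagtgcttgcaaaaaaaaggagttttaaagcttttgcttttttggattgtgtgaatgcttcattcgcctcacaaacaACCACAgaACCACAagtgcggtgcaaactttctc
ULBP1: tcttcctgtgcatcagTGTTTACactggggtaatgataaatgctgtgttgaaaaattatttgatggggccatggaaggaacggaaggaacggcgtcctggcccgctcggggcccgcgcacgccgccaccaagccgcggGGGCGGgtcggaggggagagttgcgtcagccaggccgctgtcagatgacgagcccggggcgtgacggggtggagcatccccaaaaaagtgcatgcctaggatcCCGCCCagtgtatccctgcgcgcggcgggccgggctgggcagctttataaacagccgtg
ZBTB38: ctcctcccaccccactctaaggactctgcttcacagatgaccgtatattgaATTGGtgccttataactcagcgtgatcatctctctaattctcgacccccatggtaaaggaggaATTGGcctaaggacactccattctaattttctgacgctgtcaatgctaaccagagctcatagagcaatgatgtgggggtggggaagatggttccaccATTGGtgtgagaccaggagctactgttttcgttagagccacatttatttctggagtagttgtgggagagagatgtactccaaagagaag

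The ABCB1 window held 1 AP-1, 2 NF-Y, 1 RUNX and 1 TEAD match, and its AP-1 match overlaps an NF-Y match in the run of capitals near the 5′ end. The RUNX2 window held 1 AP-1 and 4 RUNX matches, so the promoter of a RUNX factor carried several copies of the RUNX word. The RARB window held a DR5 match, the element through which RARB is known to be induced by retinoic acid. That element was searched for after RARB was seen among the members, and it was present in 0.0766% of 22183 promoter windows of coding genes (17 windows). A match is a description of the letters and not of binding.

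TxR-open peaks had a median of 10.4 CPM in TxR cells (quartiles 6.99 and 18.3, range 5 to 151), 1.83 CPM in TxCpR, 0.914 CPM in CpR and 1.23 CPM in Control cells. These levels chose the peaks and are given as a description without a test. Together the peaks took 3.99% of reads in both TxR libraries, against 0.896% and 0.875% in TxCpR, 0.575% and 0.582% in CpR and 0.685% and 0.680% in Control libraries. The ratio of the TxR mean to the highest other group mean had a median of 4.12 (quartiles 2.55 and 8.10). It lay between 2 and 2.5 in 606 peaks (23.3%) and was at least 10 in 488 (18.8%). TxR libraries differed by a median of 0.18 on the log2(CPM + 0.5) scale over members, against 0.16 over all 38342 peaks of that level, and 5% of members differed by more than 0.58. In all 2596 members both TxR libraries stood above the other 6 libraries; over all tested peaks this held in 8.86%, and the rule makes it likely for members. Most members were quiet elsewhere but seldom empty: no read was found in 7 of them in TxCpR, in 31 in CpR and in 9 in Control libraries.

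**Figure D1:**
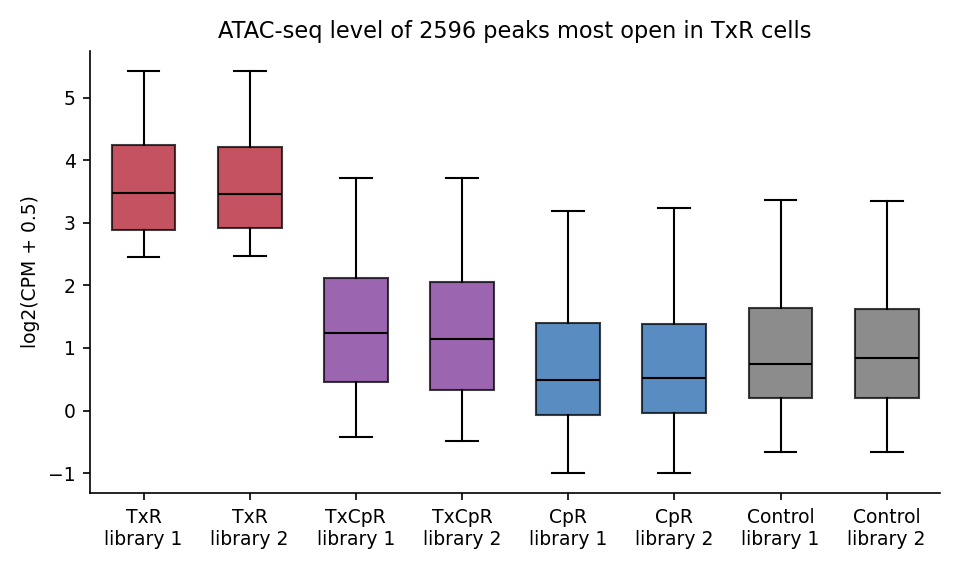
Level of the 2596 TxR-open peaks in each library, as log2(CPM + 0.5). Boxes give the quartiles and the median, whiskers the 5th and 95th percentiles. The TxR boxes lie above the upper quartile of every other library, which the rule favours by its bound on each peak but does not require. The TxCpR medians lie above those of CpR and Control.

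At the level threshold, the peaks just inside had 5.004 CPM in TxR (1 near OR10A3), and those just outside 4.999 and 4.995 CPM (1 near MBL2). At the ratio threshold, peaks near MKLN1, CCN6 and GLI2 were just inside at 2.0003, 2.0005 and 2.0008. Peaks near IRX3 and ATXN7L1 were just outside at 1.9994 and 1.9992.

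The efflux pump locus held the third largest run by number of members. On chromosome 7, from 87339436 to 87629571 (290.1 kb), 39 of 85 tested peaks were TxR-open; this run covers CROT, ABCB4, ABCB1 and RUNDC3B. The peak over the ABCB1 start (7:87600242-87601242) had 71.1 and 72.1 CPM in TxR libraries, against 9.03 and 12.6 in TxCpR, 7.77 and 7.48 in CpR and 9.10 and 6.82 in Control libraries. Both TxR libraries lay far above the others, which overlapped: the TxCpR mean of 10.8 CPM exceeded the Control mean of 7.96 CPM by 0.41 on the log2 scale (SE 0.18), which limma did not call (adjusted p = 0.114). Without TxCpR library 1 it was called, at 0.64. ABCB1 had 7 members in all, and 1 of them, 24.4 kb before the start, was called higher in TxCpR than in Control (1.12, SE 0.30, adjusted p = 0.00471).

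The members with the highest levels at the locus belonged to the neighbours. The peak at the CROT start, whose product is a peroxisomal carnitine octanoyltransferase, had 151 and 150.5 CPM in TxR libraries, 54.3 and 54.1 in TxCpR, 50.8 and 51.2 in CpR and 52.6 and 50.7 in Control libraries. All 3 other groups were near equal there. The RUNDC3B end had 106 and 116 CPM in TxR libraries, against 25.8 and 28.1 in TxCpR, 15.4 and 25.1 in CpR and 20.3 and 20.1 in Control libraries. TxCpR exceeded Control at RUNDC3B by 0.41 (SE 0.13, adjusted p = 0.0231), a call that was lost under 8 of the alternatives tried (0.32 to 0.47), among them leaving out either library of TxCpR (0.47 and 0.35) or of Control (0.41 and 0.40), and turned to -0.06 when the regional median was subtracted. With the same subtraction the ABCB1 start stood at -0.06 and CROT at -0.40.

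ABCB4, which encodes the phosphatidylcholine transporter of bile canaliculi and lies beside ABCB1, held 26 members of 48 tested peaks assigned to it. The strongest of them, inside the gene at 7:87448127-87449127, had 118 and 111 CPM in TxR libraries, 13.7 and 11.5 in TxCpR, 1.24 and 1.40 in CpR and 0.780 and 1.03 in Control libraries. TxR stood highest and TxCpR lay between it and the other 2 groups, with no overlap. TxCpR exceeded Control by 3.22 (SE 0.23, adjusted p = 2.79e-22) and CpR did not differ from Control by the test (0.38, adjusted p = 0.219). Of the 26 ABCB4 members, 9 were called higher in TxCpR than in Control and none lower, beside 8.11% and 5.39% of all tested peaks. A member 159.9 kb past the ABCB1 start had the largest ratio of all members, with group means raised to the limit of 3 reads where lower: 34.8 and 32.4 CPM in TxR libraries, against 0.371 and 0.215 in TxCpR, none in CpR and 0 and 0.386 CPM in Control. Over the whole run, 13 of 39 members were higher in TxCpR than in Control and none was lower. CpR was higher than Control in 2 members and lower in none, beside 18.3% and 14.9% of all tested peaks.

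The other peaks of the run moved as well. Its 46 tested peaks that were not members had a median log2 difference of 1.79 for TxR minus Control, and in all 46 the TxR mean was above the Control mean. For TxCpR minus Control this median was 0.58. What part of the members' level at ABCB1 belongs to this shift of the region was not tested.

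**Figure D2:**
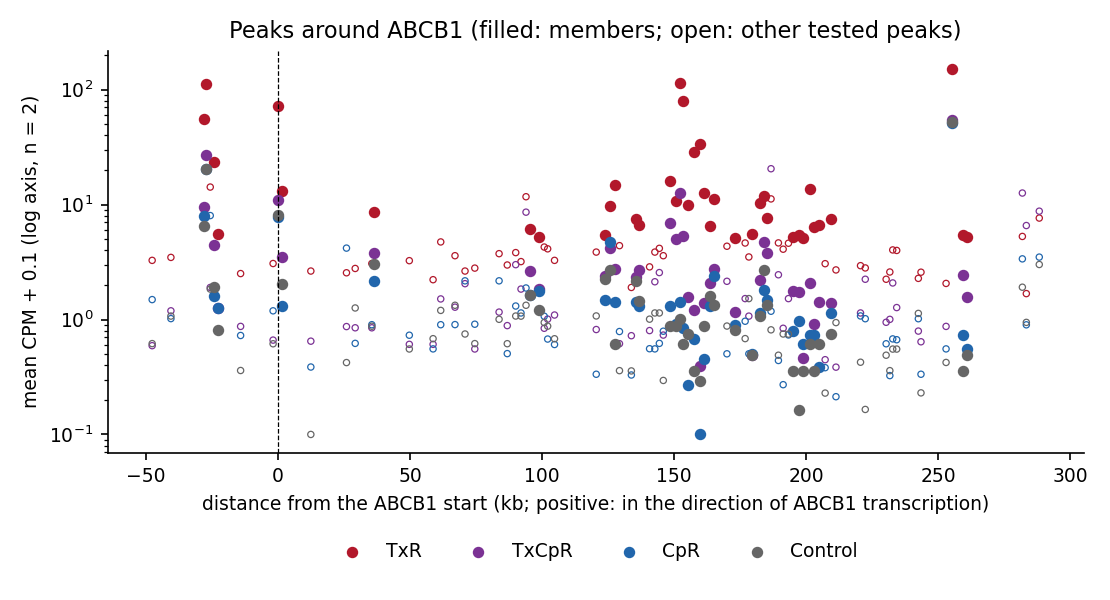
Mean CPM (n = 2, with 0.1 added for the log axis) of tested peaks around ABCB1 in the 4 groups, against the distance from the ABCB1 start in kb. Filled points are members and open points are other tested peaks. TxR is highest at all members and at most other peaks, and TxCpR stands above CpR and Control in the cluster 148.5 to 153.4 kb past the start, inside ABCB4.

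The rule capped the other 3 groups but did not set their order, so differences among them were tested. Comparisons used limma on log2(CPM + 0.5) over all 158698 tested peaks, all members included, and calls were made at an adjusted p (Benjamini-Hochberg, over all tested peaks) below 0.05. TxCpR, which shares the paclitaxel label with TxR, was the highest of the other groups in 1335 members (51.4%, Wilson 95% interval 49.5 to 53.3, counting error over peaks that are not independent), CpR in 498 (19.2%) and Control in 763 (29.4%). Over all tested peaks these shares were 40.2% for TxCpR, 33.1% for CpR and 26.6% for Control. Over the 38342 peaks with at least 5 CPM in TxR they were 38.6%, 19.3% and 42.2%. Beside peaks of that level, the CpR share of members was thus near equal, the TxCpR share higher and the Control share lower. TxCpR was called higher than Control in 511 members (19.7%), where 8.11% of all tested peaks were, and lower in 159 (6.12%), where 5.39% were. CpR was higher than Control in 191 members (7.36%, against 18.3% of all) and lower in 485 (18.7%, against 14.9%). TxCpR was higher than CpR in 844 (32.5%, against 21.9%) and lower in 162 (6.24%, against 19.9%).

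The median log2 difference over members was 0.18 for TxCpR minus Control, -0.22 for CpR minus Control and 0.43 for TxCpR minus CpR, beside 0.08, -0.09 and 0.16 over all tested peaks. In 422 members TxCpR was called higher than both CpR and Control, and 1307 members were called in none of the 3 comparisons. No share over all tested peaks is given for either count, so neither can be read as particular to members. Median-ratio scaling shifts the medians over all tested peaks to 0.01 for CpR minus Control and -0.00 for TxCpR minus CpR. With 5 Mb regional medians subtracted, TxCpR minus Control gave 397 higher and 210 lower members, and TxCpR minus CpR 680 higher and 253 lower.

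**Figure D3:**
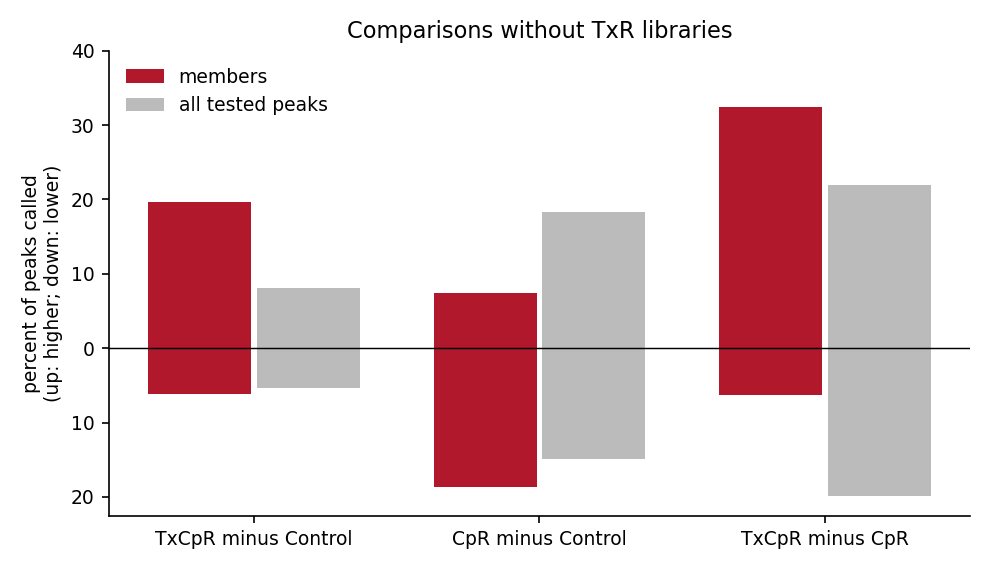
Percent of the 2596 TxR-open peaks (red) and of all 158698 tested peaks (grey) called higher (bars up) or lower (bars down) by limma in the 3 comparisons that use no TxR library. Among members, TxCpR was higher than Control in 19.7% and lower in 6.12%, and CpR was lower than Control in 18.7% and higher in 7.36%.

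Members often lay near each other along the genome. Of the 2596, 2295 (88.4%) had another member within 100 kb. Of tested peaks, 99.0% had another tested peak that near, but the 158698 tested peaks lie far denser, so these shares cannot be compared. Joined at gaps of at most 100 kb they formed 645 runs, of which 148 had at least 5 members and held 1768 (68.1%) of them. The 44 regions of 5 Mb with at least 20 members each held 51.9% of members and 7.94% of tested peaks. They were picked for their members, so their larger share of members follows in part from that choice. In those regions the other peaks ranged widely, with a median TxR minus Control difference from -0.97 to 1.10, and 7 regions lay above 0.5. The most members were found at 85 to 90 Mb of chromosome 3 (65 of 252 tested peaks) and at 135 to 140 Mb of chromosome 6 (60 of 176).

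The longest run by members lay in an intergenic stretch of chromosome 6 (139750774 to 140106393), where 48 of 69 tested peaks were TxR-open. Its members had a median of 11.3 CPM in TxR, 1.94 in TxCpR, 0.397 in CpR and 0.322 in Control cells. TxCpR was called higher than Control in 36 of the 48 members and lower in none, beside 8.11% and 5.39% of all tested peaks. One of them (6:140050160-140051160) had 56.6 and 61.6 CPM in TxR libraries, 19.2 and 21.7 in TxCpR, 3.49 and 3.16 in CpR and 0.260 and 0.386 in Control libraries. The groups stood apart there in that order, and TxCpR exceeded Control by 4.67 (SE 0.23, adjusted p = 1.25e-33).

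Runs differed in what the other lines did. Over all tested peaks, 8.11% were called higher and 5.39% lower in TxCpR than in Control, and 14.9% lower in CpR than in Control. On chromosome 12 from 19840914 to 20213265, 21 of 36 members were higher in TxCpR than in Control and none lower. On chromosome 7 from 25656131 to 25857885 the direction was the other one, with 15 of 35 members lower in TxCpR than in Control and 1 higher, and 13 lower in CpR. Its peak at 7:25752833-25753833 had 66.4 and 70.8 CPM in TxR libraries, 4.33 and 4.51 in TxCpR, 0.675 and 1.29 in CpR and 29.4 and 27.7 in Control libraries. The signal was thus present in Control cells, weaker in TxCpR (-2.56, SE 0.20, adjusted p = 8.09e-20) and weakest in CpR (-4.32, SE 0.20, adjusted p = 1.43e-35).

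Other runs had member medians below 1 CPM in each group but TxR. On chromosome 2 from 195161887 to 195496304, 32 of 50 tested peaks were members with a median ratio of 10.3. Beside SLC27A6, a fatty acid transporter family gene, 31 of 45 tested peaks on chromosome 5 from 128670587 to 128965844 were members with a median ratio of 16.9. The SLC27A6 promoter peak itself was not as low elsewhere, with 36.9 CPM in TxR, 6.72 in TxCpR, 3.09 in CpR and 5.43 in Control cells. TxCpR was called higher than Control in no member of either run, beside 8.11% of all tested peaks.

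Chromosomes 6 and 7 held more members than any other. Chromosome 6 had 382 (14.7% of members, 4.76% of tested peaks), or 5.06 per 100 tested peaks, and chromosome 7 had 336, or 3.50 per 100. Chromosome 13 followed with 3.12 per 100, and chromosomes 17 and 22 had 0.351 and 0.278. The other tested peaks of these chromosomes moved too: the median log2 difference of TxR minus Control over non-members was 0.41 on chromosome 6 and 0.30 on chromosome 7, and between -0.27 and -0.15 on every other chromosome. When the median of each chromosome was subtracted first, 200 of 382 chromosome 6 members and 217 of 336 chromosome 7 members still met the rule, and 1874 of 1878 on the other chromosomes did. On those other chromosomes the non-member medians of TxR against TxCpR and Control were negative, so the subtraction eased the rule. Their near-complete retention was thus largely set in advance. With 5 Mb regional medians subtracted, 175 of 382, 193 of 336 and 1792 of 1878 members met the rule. What part of the chromosome 6 and 7 members belongs to that shift was not tested beyond these counts.

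**Figure D4:**
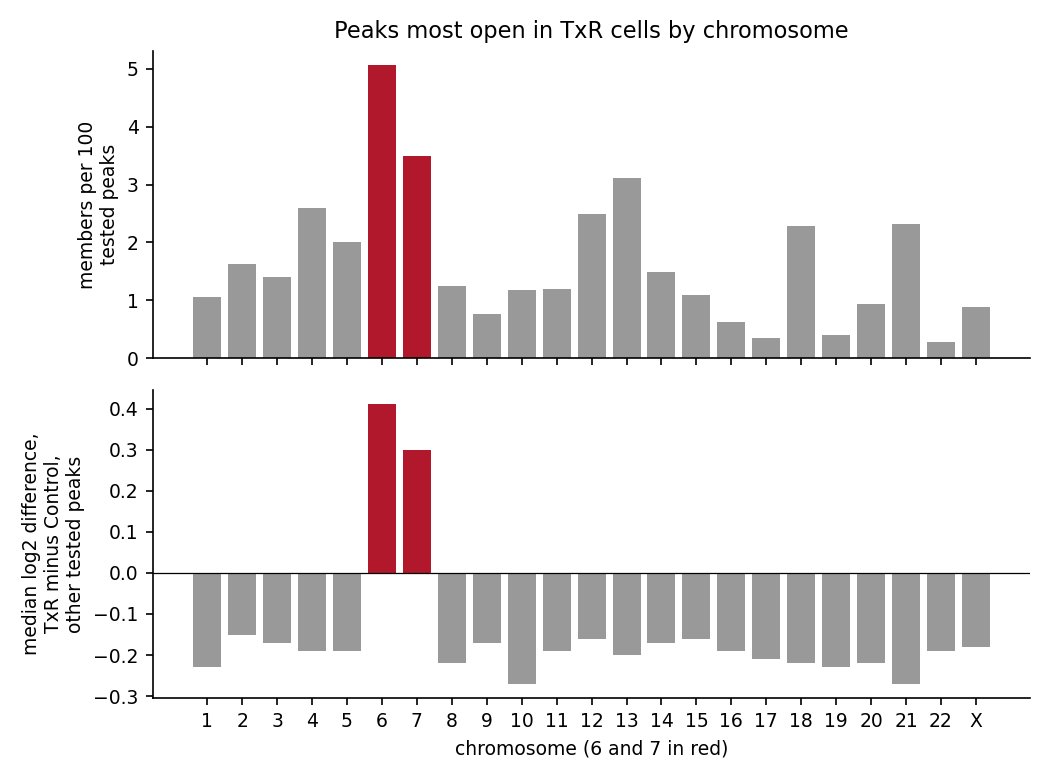
Members per 100 tested peaks (top) and the median log2 difference, TxR minus Control, of the tested peaks that are not members (bottom), by chromosome. Chromosomes 6 and 7 (red) have 5.06 and 3.50 members per 100 and are the only chromosomes whose other peaks have a median above 0.

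Ratios on these chromosomes were lower than over the other chromosomes pooled, as a description: the median was 2.76 on chromosome 6, 3.26 on chromosome 7 and 4.58 over the others. Between 2 and 2.5 lay 42.4% of chromosome 6 members. Of 382, 71 (18.6%) were at gene ends, with a median ratio of 2.15 (quartiles 2.06 and 2.24). The 27 gene-end members of chromosome 7 were like them in ratio, with a median of 2.12 (quartiles 2.06 and 2.45). The 71 on chromosome 6 had median levels of 23.8 CPM in TxR, 10.3 in TxCpR, 9.01 in CpR and 8.79 in Control cells. The end of BCLAF1, a nuclear regulator of transcription and splicing, had 103 and 92.6 CPM in TxR libraries, 38.8 and 37.8 in TxCpR, 42.9 and 48.2 in CpR and 42.9 and 43.0 in Control libraries. FBXO5, which encodes the anaphase-promoting complex inhibitor EMI1, had 91.7 and 97.3 CPM in TxR libraries, 40.3 and 42.0 in TxCpR, 40.7 and 40.5 in CpR and 42.6 and 37.1 in Control libraries. In both, the 6 other libraries lay close together and far below TxR. The ends of MRPL18 and TCP1, of the linker histone gene H1-2 and of TBP, the TATA-binding protein gene used here as a housekeeping control, were members with ratios of 2.14, 2.16 and 2.08. Among the 1189 gene-end peaks of chromosome 6 that were not members, TxR was above Control in 85.6% (median 0.59), against 43.2% (median -0.06) of 24364 on chromosomes other than 6 and 7.

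Away from gene starts, members were frequent and often far from any gene. By span, 192 members (7.4%) lay within 1 kb of an end of a coding gene, 940 (36.2%) inside one and 1464 (56.4%) outside. These shares were 17.1%, 44.3% and 38.7% over tested peaks. Over peaks with at least 5 CPM in TxR they were 40.3%, 29.2% and 30.4%. No coding gene lay within 100 kb of 882 members (34.0%), against 11.0% of tested peaks and 7.33% of peaks with that TxR level. Of the members, 84 (3.24%) held a whole promoter window, against 6.39% of tested peaks and 21.8% of peaks with that TxR level. Over the 92 promoter windows in members, the median G+C content was 61.0%, at 66.2% for the 52 on chromosome 6 and 51.0% for the 40 on other chromosomes, beside 65.0% for windows in all tested peaks. The AP-1 word was present in 10.9% of the 92 windows, against 4.54% of the 12307 windows in tested peaks and 6.15% of all coding windows. The SP/KLF word was present in 73.1% of the chromosome 6 windows and 35.0% of the others, against 69.4% of windows in tested peaks and 56.3% of all coding windows. The TEAD word was present in 5.77% and 25%, against 10.9% and 12.2% of the same sets. No test was made of these shares.

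Of 18567 coding genes with a tested peak, 616 (3.32%) had at least 1 TxR-open peak assigned by overlap or as the nearest gene within 100 kb, and 38 genes had at least 10. CACNA2D1, which encodes an auxiliary subunit of voltage-gated calcium channels, had 30 members of 89 tested peaks, all inside the gene. Its strongest peak (7:82050192-82051192) had 83.2 and 97.5 CPM in TxR libraries, 6.43 and 3.01 in TxCpR, 1.13 and 1.52 in CpR and 4.29 and 4.12 in Control libraries. CACNA2D1 members were not called between TxCpR and Control in any case, beside 8.11% of all tested peaks called higher and 5.39% lower. Of its 30 members 4 were lower in CpR than in Control, a share no higher than the 14.9% of all tested peaks. CNTNAP2, a neurexin-family adhesion gene, had 27 members with a median ratio of 7.56 and likewise no call between TxCpR and Control. KAT6B, a histone acetyltransferase gene, had 26 members of 50 tested peaks, of which none was called between TxCpR and Control.

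PRIM2, which encodes the large subunit of DNA primase, had 30 members of 54 tested peaks. Its strongest had 43.0 and 39.0 CPM in TxR libraries, 0.989 and 0.537 in TxCpR, 5.06 and 4.56 in CpR and 0.910 and 0.386 in Control libraries. CpR was the second group there and exceeded Control by 2.25 (SE 0.32, adjusted p = 8.52e-09). Of the 30 PRIM2 members 9 were called so and none lower, beside 18.3% and 14.9% of all tested peaks. PRIM2 has near-identical sequence elsewhere in the genome and the handling of reads that map to several places is not given, so these levels are uncertain. SUPT3H, a gene of a transcriptional coactivator complex that overlaps RUNX2 by span, had CpR high as well, with 11 of 16 members higher in CpR than in Control and none lower. In SUPT3H, 3 members were lower in TxCpR than in Control and none higher, beside 5.39% and 8.11% of all tested peaks.

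Nuclear receptor genes had members at 4 of 38 (10.5%), beside 3.32% of all coding genes: RARB, THRB, PPARD and NR2E1. RARB, the retinoic acid receptor beta gene, had 27 members of 68 tested peaks. Of the 27, 15 were called higher in TxCpR than in Control and none lower, beside 8.11% and 5.39% of all tested peaks. The peak over the RARB start shown above (3:25427918-25428918) had 71.0 and 66.9 CPM in TxR libraries, 32.8 and 28.5 in TxCpR, 9.12 and 7.37 in CpR and 6.89 and 6.44 in Control libraries. TxR stood highest and TxCpR second with no overlap, and TxCpR exceeded Control by 2.12 (SE 0.16, adjusted p = 1.07e-21) and CpR by 1.84 (SE 0.16, adjusted p = 2.67e-18). CpR was not called against Control there (0.28, adjusted p = 0.167).

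Developmental transcription factor genes had members at 6 of 54 (11.1%), beside 3.32% of all coding genes: SOX4, MEIS2, GATA2, TBX18, RUNX2 and HAND2. At the start of RUNX2, the master regulator of bone-forming cells, the peak shown above (6:45327778-45328778) had 61.1 and 61.2 CPM in TxR libraries, 25 and 23 in TxCpR, 22.4 and 26.7 in CpR and 6.89 and 10.7 in Control libraries. Both other resistant lines overlapped each other and lay above Control, by 1.43 in TxCpR (SE 0.15, adjusted p = 5.73e-14) and 1.46 in CpR (SE 0.15, adjusted p = 1.76e-14). A member inside RUNX2 (6:45419678-45420678) had the other order, with TxCpR below Control by 1.02 on the log2 scale (log2 difference -1.02, SE 0.24, adjusted p = 0.00115).

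NKG2D is the activating receptor by which natural killer cells recognise stressed cells. Genes of its ligands and of MHC class I had members at 5 of 21 (23.8%), beside 3.32% of all coding genes. The 5 genes were ULBP1, RAET1G, RAET1L, MICA and HLA-B, all on chromosome 6. The ULBP1 start (6:149963226-149964226) had 35.6 and 43.2 CPM in TxR libraries, 18.3 and 16.2 in TxCpR, 9.57 and 8.30 in CpR and 0.260 and 0.257 in Control libraries. It was graded over the resistant lines and at no more than 2 reads in a Control library, below the limit of 3 reads. TxCpR exceeded CpR by 0.91 (SE 0.23, adjusted p = 0.000569). RAET1G and MICA did not share this: RAET1G had 20.2 and 20 CPM in TxR libraries, 8.41 and 6.56 in TxCpR, 8.89 and 9.59 in CpR and 8.58 and 9.01 in Control libraries. The RAET1G and MICA ends had ratios of 2.17 and 2.16, near the median of 2.15 over gene-end members of chromosome 6. The genes of this family are similar in sequence, so reads may be shared among them.

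Matrix and mesenchymal genes had members at 10 of 37 (27.0%), the largest share among the 28 lists, beside 3.32% of all coding genes. They were VIM, CDH2, SNAI2, TWIST2, COL5A2, LUM, DCN, EPYC, FBN1 and HAPLN1. Of their 46 members, 23 were assigned to LUM or DCN. Only 5 of the 46 lay at a gene end or start, all of them at LUM or DCN, so the other genes had none there. LUM and DCN, which encode the collagen-binding proteoglycans lumican and decorin, lay in 1 run on chromosome 12 (91098748 to 91377727) where 28 of 40 tested peaks were members with a median ratio of 12.0. The LUM end (12:91111048-91112048) had 26.2 and 25.4 CPM in TxR libraries, 1.98 and 1.18 in TxCpR, 1.69 and 1.40 in CpR and 1.30 and 1.54 in Control libraries. A DCN peak 73.2 kb outside the gene had 49.7 and 46.0 CPM in TxR libraries, 3.09 and 3.76 in TxCpR, 1.13 and 0.351 in CpR and 1.95 and 0.772 in Control libraries. The other 6 libraries were low at both, and the DCN peak was the only one of 23 LUM and DCN members called between TxCpR and Control (1.15, SE 0.32, adjusted p = 0.00675). LUM and DCN are also in the fibroblast list, where 2 of 13 genes had members. Other fibroblast genes went both ways at their strongest gene-end peaks: PDGFRA averaged 9.40 CPM in TxR, 45.2 in TxCpR, 18.6 in CpR and 30.9 in Control cells, COL1A1 15.6, 31.2, 35.7 and 20.4 CPM, and COL3A1 6.53, 4.86, 4.09 and 0.970 CPM in that order. In COL5A2, a fibrillar collagen gene, the strongest listed peak had 20.9 and 19.8 CPM in TxR libraries, 4.57 and 5.05 in TxCpR, 6.19 and 11.3 in CpR and 6.24 and 5.79 in Control libraries.

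Microtubules are the target of paclitaxel. Of 24 tubulin and tubulin-folding genes, 2 had members (8.33%, beside 3.32% of all coding genes), TUBB1 and TUBB2A. The end of TUBB1, the beta-tubulin of platelets, had 9.96 and 11.0 CPM in TxR libraries, 0.247 and 0.215 in TxCpR, 0.338 and 0.234 in CpR and 0.130 and 0.257 in Control libraries. All 6 other libraries were at or under 3 reads. A second TUBB1 member, inside the gene, had 4.86 and 6.18 CPM in TxR libraries, 2.10 and 3.01 in TxCpR, 1.91 and 2.69 in CpR and 0.130 and 0.257 in Control libraries. The TUBB2A end had a ratio of 2.08, lies on chromosome 6, and belongs to a gene with a near-identical copy, TUBB2B. Of 33 microtubule-associated proteins and motors, 4 (12.1%) had members: MAP1B, MAP7, CLASP2 and KIF26B, with 1 each. CLASP2, which tracks growing microtubule ends, had 20.5 and 13.8 CPM in TxR libraries, 7.79 and 6.77 in TxCpR, 2.70 and 2.81 in CpR and 5.72 and 4.63 in Control libraries.

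Axon guidance and neuronal adhesion genes had members at 5 of 40 (12.5%), namely ROBO1, UNC5B, NCAM2, CNTN1 and CNTNAP2. Receptor tyrosine kinases had them at 4 of 41 (9.76%), namely FGFR3, IGF1R, EPHA2 and EPHA3. The share over all coding genes was 3.32%. EPHA3, an ephrin receptor gene, had 19 members. Of these 9 were called higher in TxCpR than in Control and none lower, beside 8.11% and 5.39% of all tested peaks. EDIL3, a gene of neither list, which encodes an integrin-binding matrix protein, had 17 members, of which 10 were higher in TxCpR than in Control. A member 93.0 kb from EDIL3 had 68.5 and 69.1 CPM in TxR libraries, 33.9 and 33.5 in TxCpR, 0.900 and 1.29 in CpR and 1.82 and 3.22 in Control libraries (TxCpR minus CpR 4.43, SE 0.21, adjusted p = 2.83e-35).

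ASIP, which encodes the agouti signalling protein that blocks the melanocortin receptor, was the single pigmentation gene with members (1 of 13, or 7.69%, beside 3.32% of all coding genes). It had 8 of them, and 6 were higher in TxCpR than in Control, beside 8.11% of all tested peaks. Its peak at 20:34194952-34195952 had 27.7 and 28.3 CPM in TxR libraries, 10.6 and 8.49 in TxCpR, 0.563 and 0.585 in CpR and 1.30 and 0.901 in Control libraries, so that both lines with the paclitaxel label stood apart from the other 2 groups.

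No member was assigned to any of 21 mitotic checkpoint and kinetochore genes, 18 BCL2 family genes, 30 interferon-stimulated genes, 27 glutathione and NRF2 genes, 25 epithelial adhesion and keratin genes, 13 cancer-testis antigen genes, 14 haematopoietic markers or 8 endothelial markers with a tested peak. One gene each had a member in the lists of TGF-beta and BMP signalling (ID3, 1 of 31), WNT signalling (ROR2, 1 of 40) and AP-1 and immediate early genes (FOS, 1 of 25). Of all coding genes with a tested peak 3.32% had a member, so lists of these sizes can hold none or 1 at that share. Members were also assigned to TNFAIP3 and SOD2 among 26 NF-kB and inflammatory genes, to KCNT2 and CACNA2D1 among 37 channel genes and to CYP1B1 and ALDH1A1 among 14 taxane-metabolizing P450 and aldehyde dehydrogenase genes. The AP-1 subunit gene FOS had its member 5.44 kb outside the gene, with 45.2 and 49.0 CPM in TxR libraries, 8.66 and 6.13 in TxCpR, 4.28 and 3.04 in CpR and 3.77 and 3.48 in Control libraries (TxCpR minus Control 0.92, SE 0.22, adjusted p = 0.0015).

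**Figure D5:**
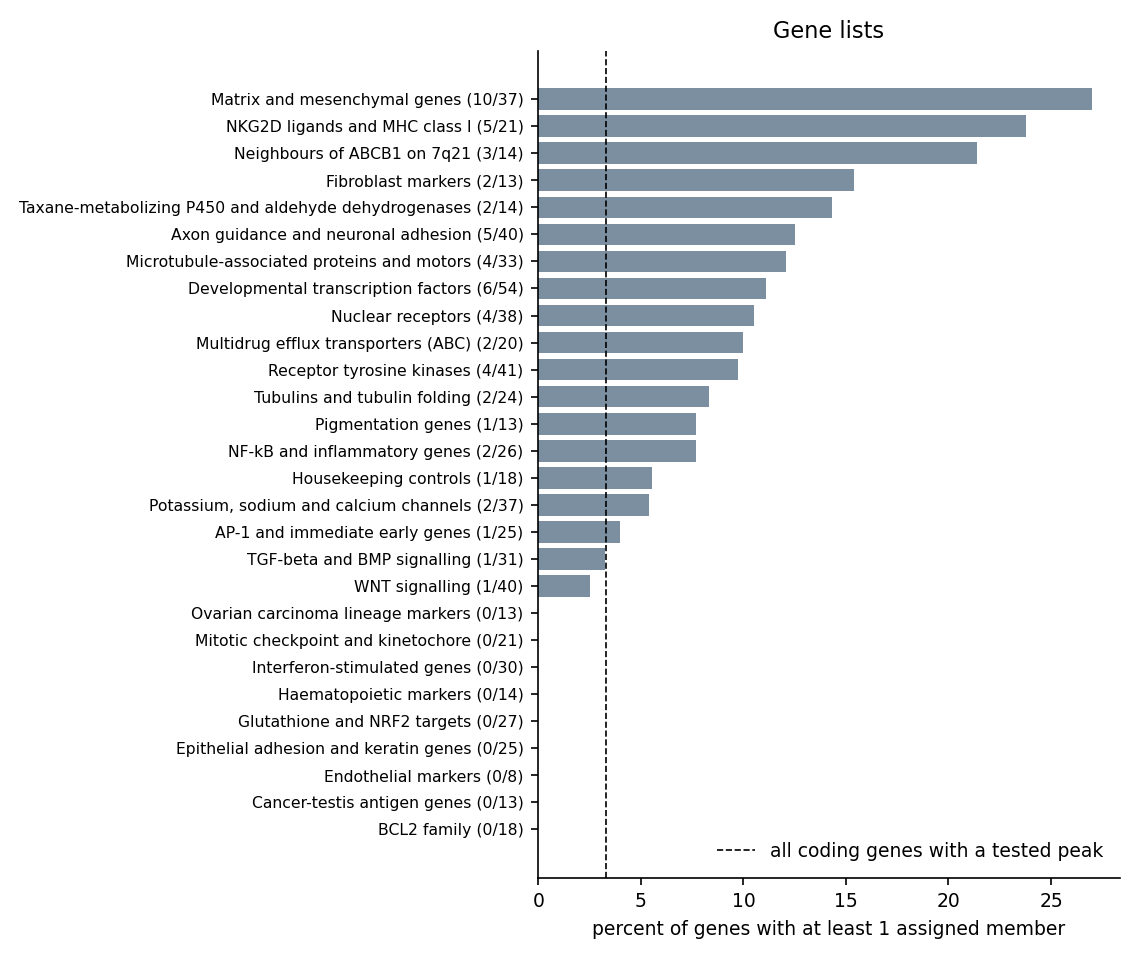
Percent of the genes of each list that have at least 1 TxR-open peak assigned, with the number of such genes over the genes with a tested peak. The dashed line is the 3.32% of all coding genes; matrix and mesenchymal genes stand at 27.0% and 9 lists at 0. Genes differ in how many peaks are assigned to them, and no test of the lists was made.

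The largest ratios were at places that were nearly closed in the other lines. Besides the ABCB4 member, AOPEP, an aminopeptidase gene, had a member inside it with 44.2 and 40.0 CPM in TxR libraries, 0.124 and 0.430 in TxCpR, 0.225 and 0.234 in CpR and 0 and 1.16 in Control libraries. A peak near TFPI, the tissue factor pathway inhibitor gene, had 20.8 and 23.4 CPM in TxR libraries, 0.247 and 0.430 in TxCpR, 0 and 0.351 in CpR and 0.520 and 0.257 in Control libraries. The promoter peak of ZBTB38 shown above, chosen for its ratio of 16.8 after the values were seen, had 26.6 and 26.3 CPM in TxR libraries, 1.11 and 2.04 in TxCpR, 1.46 and 0.935 in CpR and 0.780 and 0.901 in Control libraries. In these 3 the other groups lay together at no more than 2.04 CPM in a library, and neither TxCpR nor CpR was called against Control.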

How the data were processed

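ATAC-seq gave 8 libraries. The authors deposited CPM for 159451 peaks in 1 matrix, scaled to reads in peaks as the values show. The submitters' processing notes name Bowtie2, Picard and MACS2 and the build hg38. Their roles and versions, the Tn5 shift, the treatment of reads with several positions and how peaks were merged are not stated. Each peak bears the name of a peak from 1 library. For 98.8% of members that library was TxR, against 23.0% of all peaks and 49.5% of peaks with at least 5 CPM in TxR. Dividing each CPM by the value of 1 read gave whole reads within 0.01 read for 100.0% of values.

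The members, gene lists and tests were chosen with earlier results of these data known. A peak was tested when 2 or more libraries had at least 1 CPM (158698, all members included). Limma 3.58.1 (R 4.3.3) was fitted to log2(CPM + 0.5) over all 4 groups with a trended prior (residual degrees of freedom 4, prior 98.5), so SEs come mostly from the trend. Log2 differences understate the change of weak peaks. edgeR 4.0.16 (quasi-likelihood) and DESeq2 1.42.0 were run on recovered reads as alternatives. Only the limma fit for TxCpR minus Control was run on simulated data, with the same spread setting for all peaks and few changed peaks. That setting differs from these data, and its outcome is not used here. No contrast with TxR was tested, because the rule used it. Peaks were placed with RefSeq spans of 20056 coding genes (GRCh38.p14), without exons, and promoter windows with strand. Peaks beyond 100 kb of a gene stayed unassigned. Named peaks were those with the highest ratio, the highest level, the largest called differences, up to 3 per gene list, those of the genes with the most members, and fixed genes. ZBTB38, SLC27A6, FOS, the DR5 element and further counts per gene were chosen after their values were seen. Sequence of peaks outside promoter windows is not used here. Some results are not reported here.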

Additional observations from a re-analysis of the deposited data

How the results depend on the processing

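The number of members depended on the rule: it was 1352 at a TxR mean of at least 10 CPM, 4513 at 1.5-fold, 1690 at 3-fold and 4003 with loess scaling, against 2596. The share of members with TxCpR as the highest of the other groups was 45.3% with median-ratio and 46.3% with quantile scaling, and 59.5% among members whose second group and the next lay further apart than the larger SD. The share at gene ends was 10.9% with a window of 2 kb and 5.47% with 500 bp. The share with another member nearby was 84.5% at 50 kb and 94.1% at 500 kb. With regions of 1 Mb, the 10 regions with the most members held 14.4% of members.

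Leaving out 1 library at a time gave 2565 to 2762 members, 500 to 697 calls for TxCpR minus Control, 538 to 683 for CpR minus Control, 824 to 1041 for TxCpR minus CpR, and a TxCpR share of 49.8 to 51.5%. With the replicate number as a block the calls were 678, 680 and 1008, against 670, 676 and 1006; the numbers do not pair the samples (correlations of deviations -0.001 to 0.003), and the block moved no count by over 1.5 times. edgeR gave 490 higher and 193 lower members for TxCpR minus Control, and DESeq2 389 and 134.

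TxCpR minus Control reversed at CROT, where it was not called, with median-ratio scaling (-0.01), regional subtraction (-0.40), edgeR (-0.03) and DESeq2 (-0.01), and was called with loess scaling (0.26). Regional subtraction also turned ABCB1 and RUNDC3B to -0.06. The ABCB1 start was called without TxCpR library 1 (0.64). The RUNDC3B call was lost under 8 alternatives (0.32 to 0.47), 0.47 and 0.35 without TxCpR library 1 and 2, 0.41 and 0.40 without Control library 1 and 2. Of 609 alternative values of 29 named differences, 593 kept direction and call. The cause of these changes was not tested. With 2 libraries a group, weak peaks near 3 reads carry little information.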
